A study of Mus musculus with 2 samples.

Results

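Transcripts of 6 genes for transcription regulators, Bend6, Gsc2, Irf2bp2, Pbx3, Maz and Kmt2a, were followed through the stages of mouse spermatogenesis. They are 6 of the 31053 genes counted, and they were picked by symbol because an earlier look at these data had shown each of them higher in pachytene cells of the library labelled Zfp541-/-. The ratios between the libraries are therefore a description, with no test. The study held 1 library from the testis of an adult C57BL/6 wild-type mouse or mice (the labels give no number of animals) and 1 from Zfp541-/- testis of the same strain and age class, where Zfp541 encodes a zinc finger protein of spermatocytes. Germ cells of tetraploid DNA content were collected by flow cytometry in both, although the sample titles call the libraries whole testis. The authors' annotation also names haploid cells in the wild-type library, 333, 619 and 393 round spermatids in 3 stages and 111 elongated spermatids. The annotated cells of that library are thus not all of tetraploid DNA content. The labels state neither the allele nor which part of the gene was deleted.

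Pachytene is the long stage of meiotic prophase in which homologous chromosomes are fully paired and recombination is completed. Male germ cells then replace much of the transcript set of spermatogonia and early prophase with genes of late meiosis and sperm formation, under activators and corepressors that act on chromatin. ZFP541 binds histone deacetylases in these cells. Among the 6 genes, Bend6 encodes a BEN domain corepressor known to bind the Notch pathway factor CSL (gene Rbpj). Gsc2 encodes a homeobox protein related to goosecoid. Irf2bp2 encodes a corepressor that binds interferon regulatory factor IRF2. Pbx3 encodes a homeobox protein of the TALE class, a DNA-binding partner of HOX proteins. Maz encodes a zinc finger protein that binds G-rich promoters. Kmt2a encodes a histone methyltransferase of active promoters.

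Sequence just upstream of the start site is shown for Bend6, Gsc2 and Irf2bp2, the 3 members whose transcripts were low in zygotene cells and high in mid pachytene cells of the library labelled Zfp541-/-. The sequences are from RefSeq on GRCm38.p6, minus strand, 5′ to 3′, and end where the first annotated transcript begins. Positions count back from the RefSeq start site, with -1 as the base before it, and the matched letters are in capitals. The Bend6 window is chr1:33907817-33908017, and its capitals are 2 overlapping matches to TGACG, the core letters of the cyclic AMP response element, 1 on each strand. The Gsc2 window is chr16:17915060-17915277, and its capitals are 3 matches to TAATCC on the other strand, the letters that homeodomains of the bicoid and goosecoid type are known to bind. The Irf2bp2 window is chr8:126593987-126594236, and its capitals are 5 matches, some overlapping, to GGGAGGG, the letters known for MAZ.
Bend6: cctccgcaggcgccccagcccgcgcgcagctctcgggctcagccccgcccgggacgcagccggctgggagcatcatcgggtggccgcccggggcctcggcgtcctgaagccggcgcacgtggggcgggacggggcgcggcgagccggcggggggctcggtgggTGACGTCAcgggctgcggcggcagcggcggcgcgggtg
Gsc2: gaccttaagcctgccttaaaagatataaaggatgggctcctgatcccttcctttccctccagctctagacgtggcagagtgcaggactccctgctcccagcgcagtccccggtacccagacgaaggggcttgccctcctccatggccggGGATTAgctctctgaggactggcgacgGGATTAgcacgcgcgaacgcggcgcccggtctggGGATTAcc
Irf2bp2: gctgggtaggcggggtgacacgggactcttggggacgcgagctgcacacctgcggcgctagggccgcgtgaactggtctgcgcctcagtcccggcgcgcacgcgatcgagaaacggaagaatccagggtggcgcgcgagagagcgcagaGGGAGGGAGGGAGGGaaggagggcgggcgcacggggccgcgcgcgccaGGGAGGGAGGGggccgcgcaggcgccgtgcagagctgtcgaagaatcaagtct

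The Gsc2 matches lie at -101 to -96, -74 to -69 and -40 to -35. Of 32851 RefSeq promoter windows of 300 bases (250 before the start and 50 after it), 7.06% held at least 1 such match on either strand and 0.0244% held at least 3. For TGACG, 20.8% of windows held at least 1 match and 5.01% at least 2, and the Bend6 pair lies at -87 to -80. That pair is 1 palindromic site, TGACGTCA, which a search of both strands counts as 2 matches. For GGGAGGG, 22.0% held at least 1 and 1.65% at least 3. Promoter windows were found for 5 of the 6 members, in 7 windows counting second start sites. Both Maz windows also held GGGAGGG, 4 times and 2 times. The Kmt2a window held none of the 6 motifs searched, which were these 3 and CCTCAG (known for STRA8), TAACNG (known for MYB) and TGGGAA (known for RBPJ). The MYB and RBPJ letters were in 0 of the 7 windows, and the STRA8 letters were matched once each in the Gsc2 and Irf2bp2 windows. The member windows were above the median in CpG, with 56 CpG pairs in that of Bend6, 39 in that of Irf2bp2 and 24 in that of Gsc2, against a median of 7 over all windows. Of all windows, 99.8%, 95.6% and 80.0% held fewer than these 3, so the Gsc2 count is a common one.

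The wild-type library held 8420 annotated cells (108612781 UMIs, that is counted molecules) and the other 8833 (119675250 UMIs), with 17 cell barcodes present in both. Each genotype had 1 library, so no difference below has a replicate check, and the 95% intervals given cover nothing but counting error. At equal stage names the cells of the library labelled Zfp541-/- were deeper: the median cell held 18665 against 7945 UMIs in mid pachytene and 23690 against 9210 in late pachytene. Their median mitochondrial percent was also higher, at 4.24 against 2.25 in early, 3.08 against 1.48 in mid and 2.22 against 1.26 in late pachytene, and its part in the member values was not tested beyond leaving out cells above 5%. Levels are therefore given per 1000000 UMIs (CPM), and shares of cells with a UMI are given also after thinning each cell to 3000 UMIs. The part of depth in the differences was not tested beyond that thinning and a range of matched depths. Zfp541 itself, the label check, was higher and not lower in the library labelled Zfp541-/-, with 81.9 CPM in mid pachytene (28.1 in the wild-type) and 70.6 CPM in late pachytene (35.8 in the wild-type). A count near the 3' end of a transcript does not show whether an upstream part is missing.

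The wild-type library held few cells before pachytene, 122 in 6 stages against 3210, and the library labelled Zfp541-/- held 13 diplotene cells and none later. Pachytene markers fixed for the stage check summed to 14121 and 13256 CPM in mid pachytene of the wild-type and the other library, and to 16124 and 15745 CPM in late pachytene. The mid and late pachytene clusters, however, had 0 pachytene markers among their 10 leading genes, so the check neither bears out nor contradicts these names. Both early pachytene clusters, numbers 12 and 16, had 0 pachytene markers and 1 spermatogonium marker (Sohlh2) there, and ratios between the libraries in early pachytene are taken only within each of them. Levels of early pachytene as a whole are given only for the course within a library, and the Maz and Kmt2a timing ratios use them. Markers of Sertoli, Leydig, myoid, endothelial, blood and macrophage cells summed to between 0 and 5.04 CPM per list in mid and late pachytene of both libraries. Markers of elongated spermatids summed to 285 CPM in wild-type mid pachytene and 1.37 CPM in the other library, and their part in the member values was not tested.

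Within the library labelled Zfp541-/-, the members fell into 2 kinds by timing. Bend6 and Gsc2 were new in pachytene, by the rule that every stage from spermatogonia to zygotene was more than 10 times lower than the highest pachytene level. Their highest pachytene levels were 14.9 and 20.0 times their highest earlier levels. Without cells above 5% mitochondrial UMIs the Bend6 value was 8.57, which ends its class as new. Irf2bp2, Pbx3, Maz and Kmt2a were classed as persisting from earlier stages, by the rule that the highest pachytene level was at most 2 times the highest earlier one. Here their ratios were 0.99, 0.25, 0.66 and 0.40. The rule compares highest levels only, so the class does not mean that a transcript stayed up throughout. In UMIs per cell the values were 2.44 for Irf2bp2 and 2.21 for Maz, which ends that class for both. The 4 genes classed as persisting differed in course. Irf2bp2 was nearly lost in leptotene and came back in mid pachytene, and Pbx3 stayed up after a preleptotene peak in CPM. The CPM of Maz fell later than in the wild-type library, and Kmt2a was held into early pachytene and then lost.

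**Figure D1:**
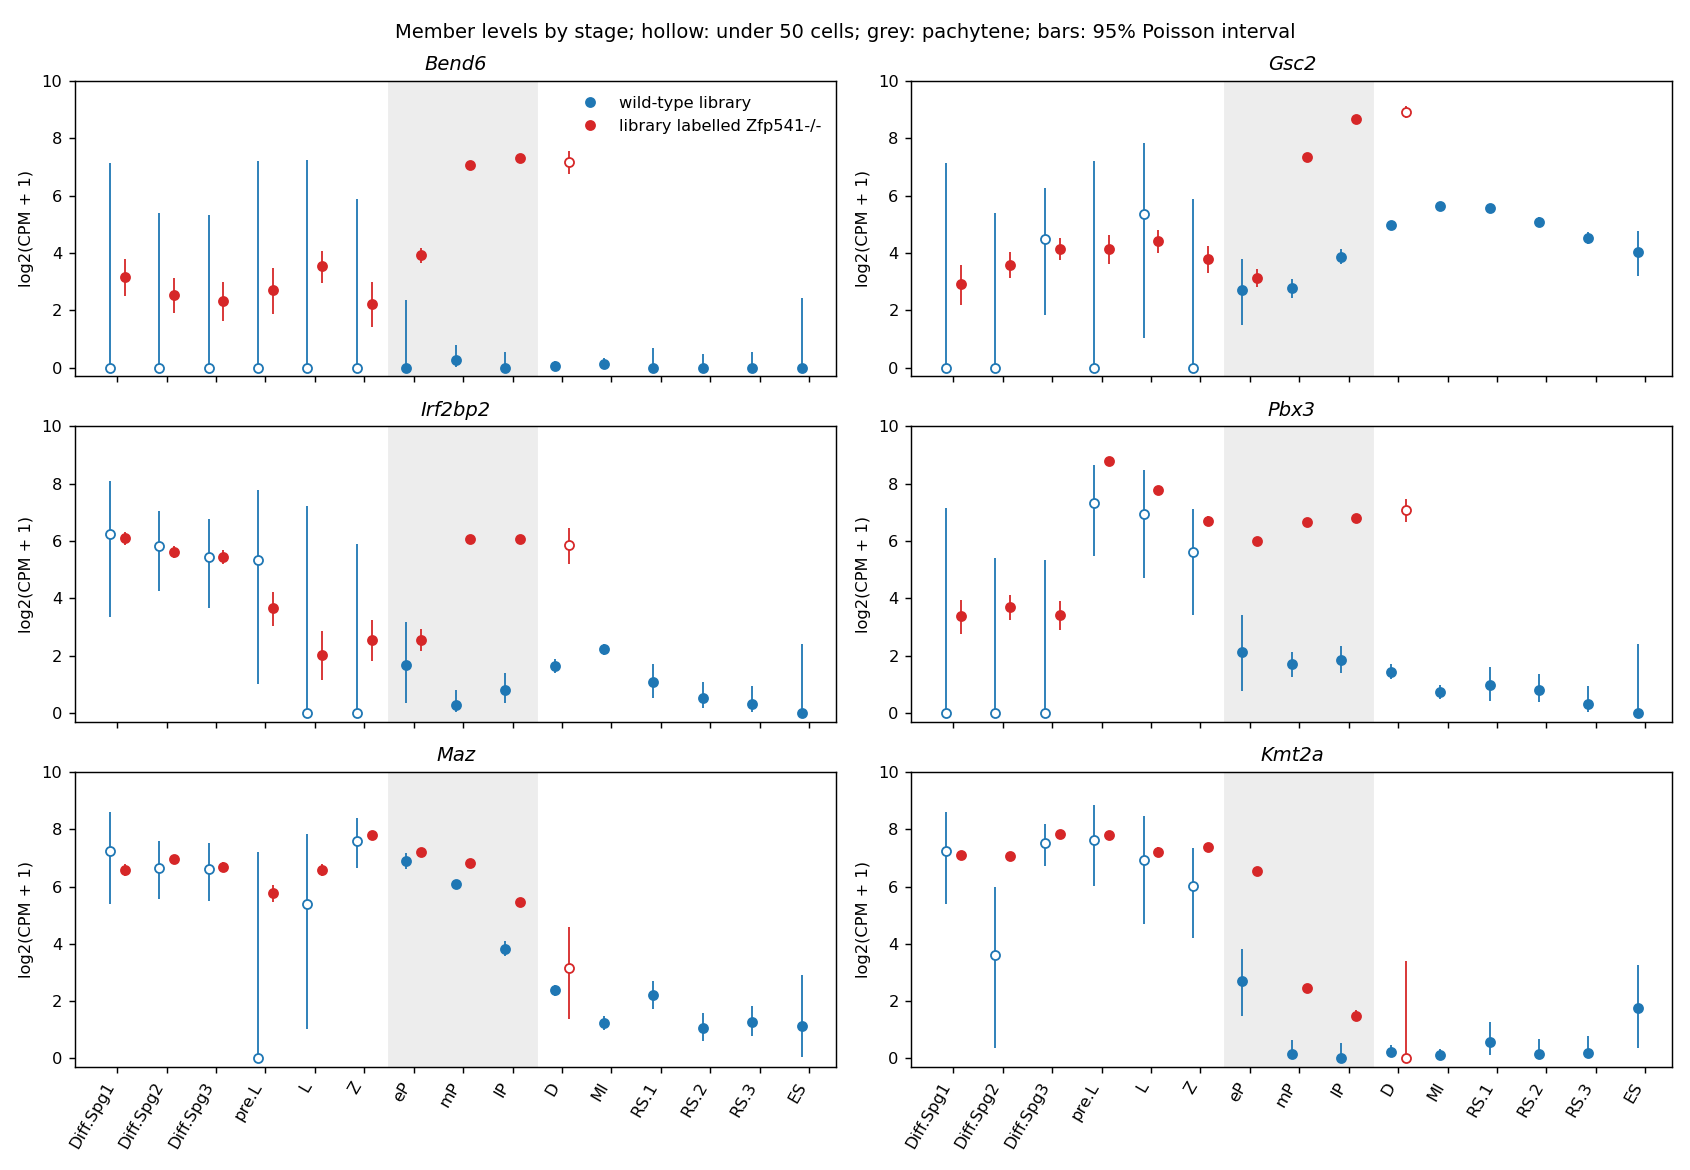
Level of each member by stage, as log2(CPM + 1), in the wild-type library and the library labelled Zfp541-/-; vertical lines are 95% counting intervals, hollow points are stages under 50 cells and grey marks early, mid and late pachytene (eP, mP, lP), between spermatogonia (Diff.Spg), preleptotene, leptotene and zygotene (pre.L, L, Z) and diplotene, the first meiotic division, round and elongated spermatids (D, MI, RS, ES). In mid and late pachytene Bend6 at 132 and 157 CPM (library labelled Zfp541-/-) is far above the wild-type values of at most 0.206 CPM, whereas Kmt2a is under 5 CPM in both libraries.

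Bend6 was the clearest case of a transcript with almost no counterpart in the wild-type library from pachytene on. The gene (ENSMUSG00000042182) lies on chromosome 1 from 33852052 to 33907816 in GRCm38, minus strand. In the library labelled Zfp541-/-, its level was 7.99, 4.78 and 4.01 CPM in the 3 spermatogonial stages, 5.50 in preleptotene, 10.6 in leptotene, 3.61 in zygotene and 14.1 in early pachytene. It then reached 132 CPM (129 to 135, from 6449 UMIs) in mid pachytene, 157 CPM (154 to 161) in late pachytene and 143 CPM in the 13 diplotene cells. In the wild-type library it had 2 UMIs in 1207 mid pachytene cells, 0 in 827 late pachytene cells, 1 in diplotene and 3 in the first meiotic division, with 0 UMIs in each of the other 11 stages. The wild-type stages before pachytene together held only 323040 UMIs in 122 cells. Their 0 therefore cannot be told from the 5.85 CPM of the same stages, pooled, in the other library.

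The wild-type mid pachytene level of Bend6 was 0.206 CPM (0.0249 to 0.743), and the ratio of 642 (178 to 5305) of the other library to it rests on 2 UMIs. In late pachytene the level in the library labelled Zfp541-/- was at least 418-fold higher, with the wild-type 0 read as up to 3 UMIs. At least 1 Bend6 UMI was found in 85.0% of mid pachytene cells and 94.4% of late pachytene cells of the library labelled Zfp541-/-, against 1.34% of its zygotene cells, its lowest stage, whose median depth was 3114 UMIs. After thinning to 3000 UMIs the shares were 31.5%, 39.5% and 0.268%, and 0 of 1200 and 0 of 825 wild-type mid and late pachytene cells held a UMI. Many cells held several molecules, with 33.2% of late pachytene cells at 5 UMIs or more and a maximum of 17 in 1 cell. Bend6 was thus measured in most cells of these stages in 1 library and in almost none of the other.

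Gsc2 was also new in pachytene, but it came later and went on climbing along the stages. The gene (ENSMUSG00000022738) lies on chromosome 16 from 17913107 to 17915059, minus strand. In the library labelled Zfp541-/- its level was 6.58, 11.0 and 16.7 CPM in spermatogonia, 16.5 in preleptotene, 20.2 in leptotene, 12.8 in zygotene and 7.81 in early pachytene. It was 162 CPM (159 to 166) in mid pachytene, 406 CPM (400 to 411) in late pachytene and 485 CPM in the few diplotene cells. From early pachytene to the first meiotic division, the gene's own wild-type course had the same direction at a lower level and a later time. It was 5.56, 5.86 and 13.7 CPM in early, mid and late pachytene, 30.4 in diplotene and 48.2 in the first meiotic division. It was then 46.2, 33.0 and 22.0 in round spermatids and 15.3 in elongated spermatids. The wild-type stages before pachytene, pooled, gave 9.29 CPM from 3 UMIs only.

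Gsc2 was therefore present in both libraries, and late pachytene cells labelled Zfp541-/- held more of it per UMI than any wild-type stage of at least 50 cells. The ratio between libraries was 27.7 (21.3 to 36.6) in mid pachytene and 29.7 (24.6 to 36.2) in late pachytene. A Gsc2 UMI was found in 73.3% and 99.9% of mid and late pachytene cells of the library labelled Zfp541-/-, and in the wild-type library in 4.72% (57 of 1207) and in 99 of 827. Thinned to 3000 UMIs, these were 34.3% and 67.9% against 1.92% and 4.85%, with 2.46% in early pachytene, the lowest thinned share in the library labelled Zfp541-/-. In late pachytene 84.2% of cells of that library held at least 5 UMIs.

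Irf2bp2 had a course with 2 high phases. The gene (ENSMUSG00000051495) lies on chromosome 8 from 126588296 to 126593986, minus strand, and its exons overlap those of the antisense gene Gm26759, which had 0 CPM in wild-type and 3.53 CPM in the other library in mid pachytene. In the library labelled Zfp541-/- Irf2bp2 stood at 67.7, 48.4 and 42.8 CPM in spermatogonia, then 11.6 in preleptotene, 3.08 in leptotene, 4.82 in zygotene and 4.89 in early pachytene. It was back at 66.1 CPM (63.9 to 68.4) in mid pachytene, 67.0 CPM (64.7 to 69.4) in late pachytene and 57.4 CPM in diplotene.

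The first of these phases was seen in the wild-type library too, and the second was not. Wild-type spermatogonia had 75.8, 55.7 and 42.6 CPM in few cells, and the 6 stages before pachytene, pooled, gave 37.1 CPM (19.2 to 64.9) for the wild-type and 31.5 CPM (28.7 to 34.5) for the other library. Wild-type early, mid and late pachytene had 2.22, 0.206 and 0.752 CPM, and no later stage exceeded 3.65 CPM. The ratio was 321 (88.9 to 2655, from 2 wild-type UMIs) in mid pachytene and 89.1 (40.9 to 243) in late pachytene. A UMI was found in 66.1% and 74.8% of mid and late pachytene cells labelled Zfp541-/-, against 0.166% and 0.726% in the wild-type library and 0.794% in its own library's leptotene cells. Thinned shares were 16.8% and 19.1% against 0% and 0.242%. Because of the second phase, Irf2bp2 counts as new in pachytene when only zygotene and mid pachytene are compared, with a ratio of 13.7.

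In CPM, Pbx3 had its highest level before meiosis and did not decline to the wild-type level afterwards. The gene (ENSMUSG00000038718) lies on chromosome 2 from 34171457 to 34373142, minus strand. In the library labelled Zfp541-/- it went from 9.40, 11.9 and 9.69 CPM in spermatogonia to 440 CPM (410 to 471) in preleptotene, 222 in leptotene, 102 in zygotene and 63.1 in early pachytene. From there it was higher again, at 99.9 CPM (97.1 to 103) in mid pachytene, 110 CPM (107 to 113) in late pachytene and 136 CPM in diplotene. In UMIs per cell, mid and late pachytene were both above preleptotene. They held 4873 UMIs in 2501 cells and 5144 UMIs in 1945 cells, against 799 UMIs in 482 preleptotene cells.

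The wild-type library had 4 Pbx3 UMIs in preleptotene, 3 in leptotene and 3 in zygotene, or 158, 122 and 47.6 CPM. The earlier peak is thus seen there on 10 UMIs only. With all stages before pachytene pooled, Pbx3 was already higher in the library labelled Zfp541-/-, at 109 against 31.0 CPM. That ratio was 3.54 (1.92 to 7.39), and the part of the differing mix of stages in it was not tested. Wild-type early, mid and late pachytene had 3.34, 2.26 and 2.63 CPM. The ratio was 44.1 (29.1 to 70.5) in mid and 41.7 (27.3 to 67.4) in late pachytene. Within early pachytene clusters 12 and 16 it was 18.5 (3.30 to 734) and 19.4 (5.31 to 161), each from 1 or 2 wild-type UMIs. Shares of cells with a UMI were 78.8% and 87.6% in mid and late pachytene of the library labelled Zfp541-/- and 1.82% and 2.54% in the wild-type library, and 25.2% and 26.9% against 0.333% and 0.606% after thinning. Pbx3 and Kmt2a were the members whose ratio had a counting interval above 1 in both early pachytene clusters.

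Maz was high in both libraries and differed in how fast its CPM fell. The gene (ENSMUSG00000030678) lies on chromosome 7 from 127022130 to 127027037, minus strand. In the library labelled Zfp541-/- its level was 94.5, 124 and 102 CPM in spermatogonia, 53.4 in preleptotene, 94.6 in leptotene and 223 CPM (205 to 242) in zygotene. It was 146 in early, 113 in mid and 43.5 in late pachytene, and 7.83 in diplotene. The fall up to mid pachytene is one of CPM only, as UMIs per cell rose over these stages. There were 555 UMIs in 673 zygotene cells, 1254 in 1164 early and 5531 in 2501 mid pachytene cells. Late pachytene then held 2039 UMIs in 1945 cells. The wild-type library had 190 CPM in zygotene (12 UMIs), 119 in early, 66.3 in mid and 13.3 in late pachytene, 4.19 in diplotene and 1.35 in the first meiotic division.

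The ratio for Maz was 1.71 (1.58 to 1.86) in mid pachytene and 3.27 (2.69 to 4.02) in late pachytene. Within cluster 16 of early pachytene it was 0.884 (0.700 to 1.13), an interval that includes equal levels, and within cluster 12 it was 2.12 (1.40 to 3.36). Among mid pachytene clusters it was 1.25 in cluster 4, 1.83 in cluster 2, 1.92 in cluster 11 and 3.16 in cluster 7. Maz UMIs were found in 83.1% and 57.4% of mid and late pachytene cells labelled Zfp541-/- and in 37.8% and 11.4% of wild-type cells, and in 27.3% and 12.7% against 17.8% and 3.52% after thinning. By fold, Maz is among the 10 leading genes of mid pachytene clusters 4 and 11, Bend6 of clusters 7 and 5 and Gsc2 of cluster 0, and the sources used here do not name the genes behind the authors' clustering.

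Kmt2a was a transcript of the earlier stages that lingered in early pachytene of the library labelled Zfp541-/-. The gene (ENSMUSG00000002028) lies on chromosome 9 from 44803355 to 44881296, minus strand. In that library it had 135, 133 and 229 CPM in spermatogonia, 219 in preleptotene, 147 in leptotene and 167 in zygotene. It then had 118 CPM (109 to 128) in cluster 12 and 58.9 CPM (51.3 to 67.2) in cluster 16 of early pachytene, 4.47 CPM (3.89 to 5.10) in mid pachytene and 1.81 CPM in late pachytene. The wild-type library, in few cells, had 152, 11.1 and 181 CPM in spermatogonia, 198 in preleptotene, 122 in leptotene and 63.4 in zygotene. With all stages before pachytene pooled, Kmt2a had 105 CPM (34 UMIs) in the wild-type library and 170 CPM in the other. That ratio was 1.62 (1.16 to 2.34), so Kmt2a was higher before pachytene too. The mix of stages in the pools differed between the libraries, and its part in that ratio was not tested.

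In wild-type early pachytene Kmt2a had 5 UMIs (16.8 CPM) in cluster 12 and 0 UMIs in cluster 16, followed by 1 UMI in mid pachytene and 0 in late pachytene. The ratio in cluster 12 was 7.04 (3.00 to 21.8), and in cluster 16 the level was at least 11.8-fold higher in the library labelled Zfp541-/-. The mid pachytene ratio of 43.4 (7.71 to 1723) rests on 1 wild-type UMI, and both levels there were under the 10 CPM used as the minimum for counting a gene. Only 6.92% of mid pachytene and 3.70% of late pachytene cells labelled Zfp541-/- held a Kmt2a UMI, or 1.40% and 0.360% after thinning. Markers of spermatogonia and of preleptotene cells were also higher in these clusters of the library labelled Zfp541-/-, whereas leptotene-zygotene markers were lower. The leptotene-zygotene markers summed to 14383 against 16749 CPM in cluster 12 and 11221 against 12713 CPM in cluster 16. Spermatogonium markers summed to 680 against 499 CPM in cluster 12 and 427 against 223 CPM in cluster 16, and preleptotene markers to 593 against 436 and 633 against 374 CPM. Pachytene markers summed to 3571 against 3891 and 5731 against 7025 CPM, and the part of these shifts in the Kmt2a values was not tested. For Kmt2a the description as raised in pachytene thus rests on early pachytene and on low counts later.

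**Figure D2:**
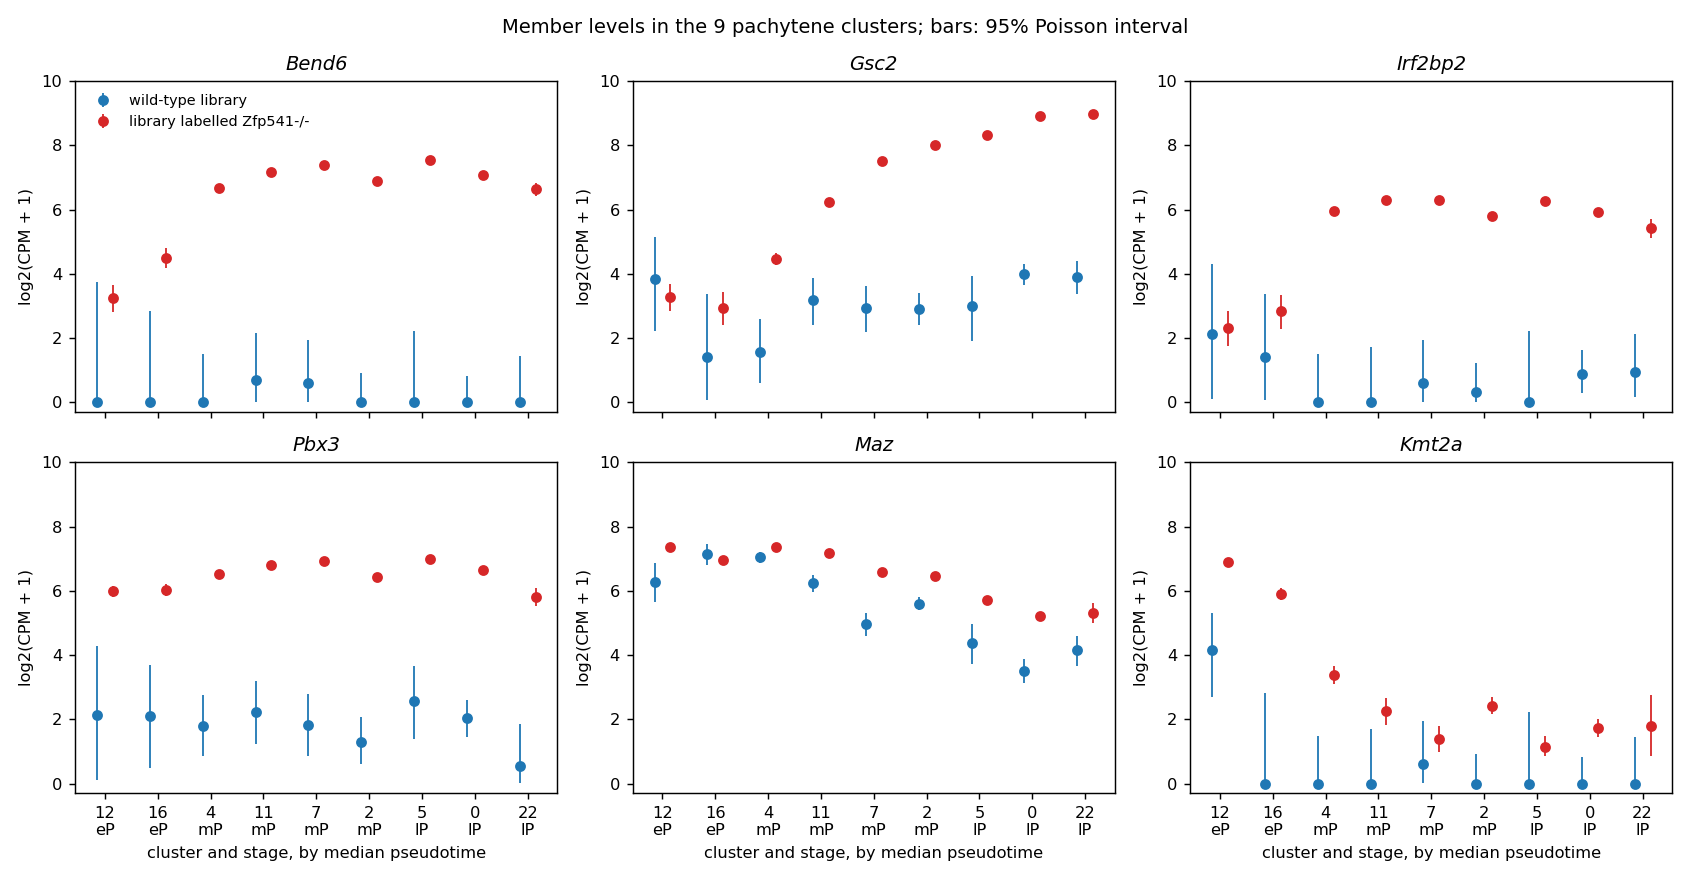
Level of each member, as log2(CPM + 1), in the 9 pachytene clusters of each library, with 95% counting intervals. Gsc2 in the library labelled Zfp541-/- goes from 21.1 CPM in cluster 4 to 258 CPM in cluster 2 and 505 CPM in cluster 22, whereas Irf2bp2 lies between 41.8 and 78.2 CPM in all 7 mid and late pachytene clusters.

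Clusters within a stage separated the members further. Bend6 in the library labelled Zfp541-/- had 143, 167 and 118 CPM in mid pachytene clusters 11, 7 and 2 and less in cluster 4, and 185, 135 and 98.0 CPM in late pachytene clusters 5, 0 and 22. Gsc2 had 21.1, 73.9, 182 and 258 CPM in mid pachytene clusters 4, 11, 7 and 2 and 321, 479 and 505 CPM in the late ones, so Gsc2 spread far more over the clusters than Bend6 did. The 2 libraries filled these clusters unequally: late pachytene was mostly cluster 0 in the wild-type library (486 of 827 cells) and clusters 0 and 5 in the other (959 and 884 of 1945). Within each of the 7 mid and late clusters Bend6, Gsc2, Irf2bp2, Pbx3 and Maz were all higher in the library labelled Zfp541-/-.

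The deposited pseudotime score, which orders cells from spermatogonia to spermatids, placed the changes in the library labelled Zfp541-/- in sequence. Levels were summed over windows of 1000 units. From the window starting at -22000 to the next 2, Irf2bp2 had 5.28, 37.6 and 74.4 CPM and then stayed between 55.2 and 74.7 CPM. Bend6 had 16.6, 62.2 and 118 CPM over these windows and stood at 141 CPM in the next. Kmt2a went the other way in the same windows, from 76.3 to 19.1 and 7.16 CPM, so the loss of one transcript and the gain of the others lay in the same stretch of the order.

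Gsc2 was still at 9.34 CPM in the window starting at -21000, where Bend6 and Irf2bp2 were already raised. It had 31.7, 73.0, 148, 198 and 248 CPM in the following windows and reached 605 CPM (572 to 640) in the window starting at -11000. Pbx3 stood at 59.3 CPM at -22000 and between 81.8 and 112 CPM from -21000 onward. Maz had 193 CPM (180 to 207) against 110 CPM (69.1 to 167) in the wild-type at -23000, 134 (124 to 145) against 119 CPM (90.2 to 155) at -22000 and 168 (156 to 181) against 145 CPM (126 to 166) at -21000. The intervals overlapped in the last 2 of these windows, and by -19000 the levels were 143 and 75.5 CPM. The authors' score was computed on both libraries by a method not given in the sources used here, and member genes may have entered it.

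**Figure D3:**
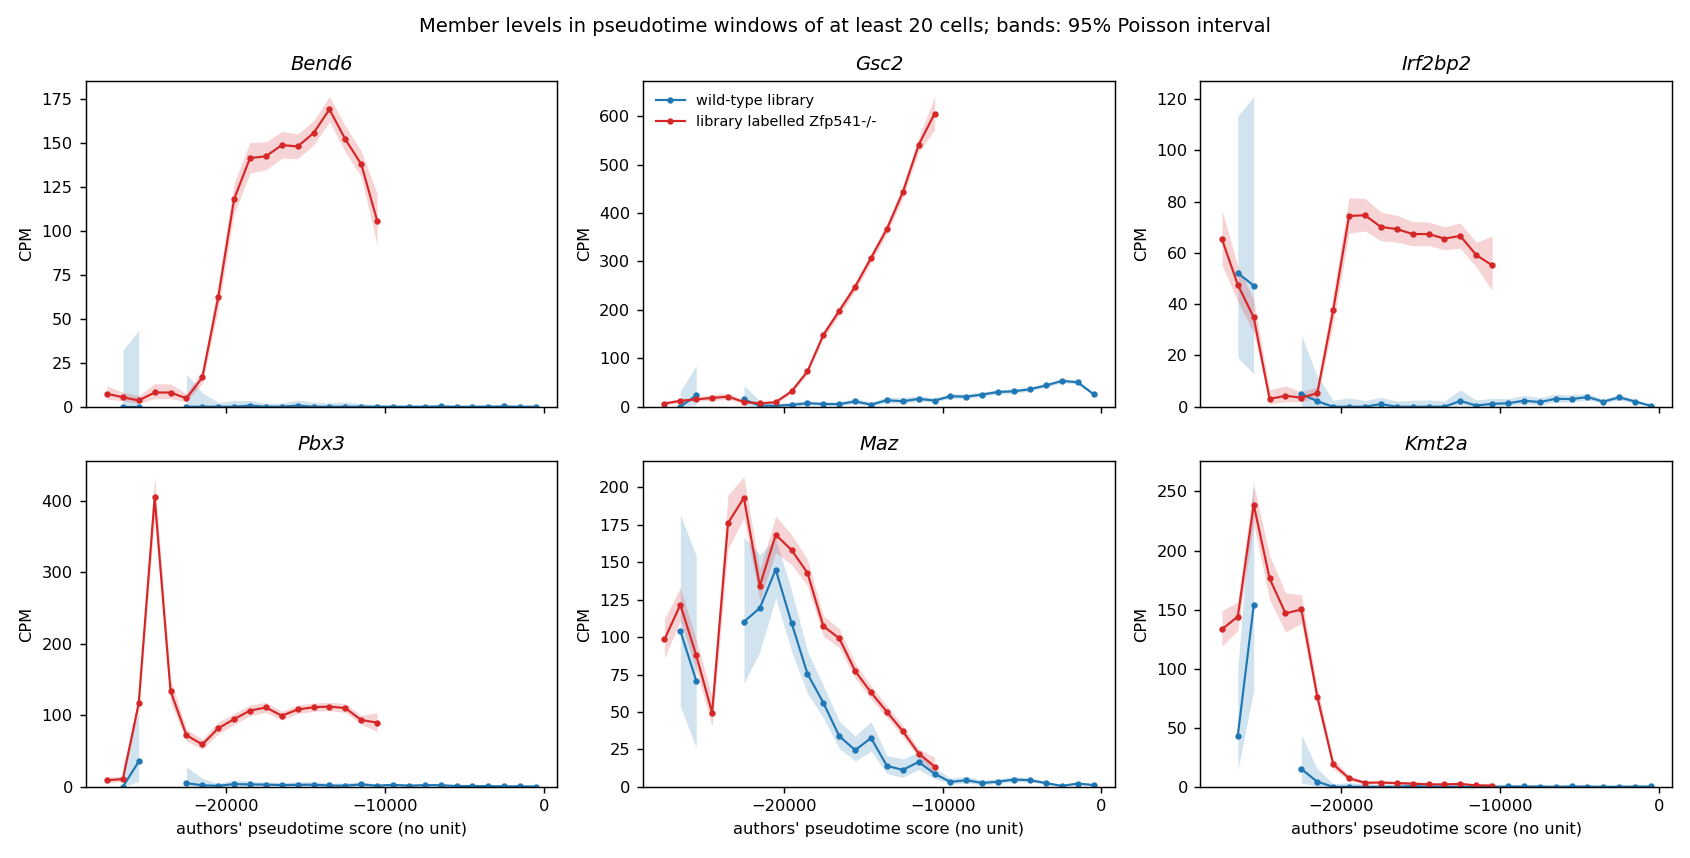
Level of each member (CPM, linear axis) in windows of 1000 units of the authors' pseudotime score, for windows with at least 20 cells, with 95% counting intervals. Bend6 and Irf2bp2 climb within the windows from -22000 to -20000 in the library labelled Zfp541-/-, and Gsc2 climbs from -20000 to the last window at -11000.

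Kmt2a aside, several members were often found in the same cell of the library labelled Zfp541-/-. Each member but Kmt2a was found in most of its mid and late pachytene cells. Whether members shared cells more often than their single shares give was not tested. Of mid pachytene cells labelled Zfp541-/-, 812 of 2501 (32.5%) held at least 1 UMI of each of Bend6, Gsc2, Irf2bp2, Pbx3 and Maz, and 7 held none of the 5. In late pachytene 759 of 1945 (39.0%) held all 5 and 0 held none. In the wild-type library 0 of 1207 and 0 of 827 held all 5, which allows shares of up to 0.249% and 0.363%, while 701 and 626 held none. In mid pachytene of the library labelled Zfp541-/-, Bend6 without Gsc2 was found in 507 cells and Gsc2 without Bend6 in 212, and in late pachytene these numbers were 1 and 107. Thinned to 3000 UMIs, at least 2 of the 5 were found in 41.3% of mid and 53.8% of late pachytene cells labelled Zfp541-/-, against 3 of 1200 and 1 of 825 wild-type cells, and all 5 in 2 and 5 cells against 0 and 0.

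Of the 7701 genes that reached 10 CPM in either library, 15.0% were at least 2-fold higher in mid pachytene of the library labelled Zfp541-/-, and 4 of the 5 members that reached this level were, all but Maz. In late pachytene the share was 17.4% of 7635 genes and the members 5 of 5. In early pachytene it was 14.4% in cluster 12 and 20.4% in cluster 16, with 3 of 4 members in each. Kmt2a was under the minimum level in mid and late pachytene. As the members were chosen on this contrast, nothing is read from these counts. The median log2 ratio of all 6 members, those under 10 CPM included, was 5.15 in mid and 5.12 in late pachytene. It was the same 5.12 with genes of 0 wild-type UMIs set at their bound. Beside it stand 0.15 and 0.11 over the genes that reached 10 CPM, so the sets were not filtered alike. In clusters 12 and 16 the median of all 6 members was 1.70 and 2.70, or 0.40 and 1.78 with genes of 0 wild-type UMIs at their bound. The genes that reached 10 CPM there gave 0.10 and 0.28.

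Relatives and partners of the members were described from 6 lists of 54 genes, of which 23 reached 10 CPM in mid pachytene and 23 in late pachytene. In mid pachytene 4 of 23 were at least 2-fold higher in the library labelled Zfp541-/- and 1 was at least 2-fold lower (10.6% of all genes tested), and in late pachytene 4 of 23 were higher and 2 lower (14.3% of all genes tested). Their median log2 ratios were 0.25 and 0.31. Their share of higher genes was near that of all genes given above.

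Rbpj, the gene of the CSL factor that BEND6 binds, had 16.2 and 37.1 CPM in mid pachytene and 6.89 and 22.0 CPM in late pachytene in the wild-type and the other library, and no other gene of the BEN domain list reached the level. Patz1, a zinc finger relative of MAZ, had 0 and 10.5 CPM in mid pachytene, at least 33.9-fold higher, and the 6 other tested genes of its list, which include Ctcf, were within 2-fold. In the KMT2 list, which holds Kmt2a's family and its complex subunits, 10 of 13 tested genes were within 2-fold in mid pachytene. Kmt2c had 5.56 and 45.9 CPM, Setd1a 16.6 and 38.1 CPM, and Setd1b, lower in the library labelled Zfp541-/-, 13.2 and 1.78 CPM.

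The closest relatives of the homeobox members did not share their difference. Among PBX and TALE genes, Pbx4, a family member known from spermatocytes, had 494 CPM in wild-type and 361 CPM in the other library in mid pachytene. Pknox1, a TALE partner of PBX proteins, had 53.5 and 26.1 CPM in late pachytene, just past 2-fold lower, and within 2-fold under median-of-ratios scaling. The 8 paired-type homeobox genes listed beside Gsc2 and the 6 genes of the IRF2BP list were all under 10 CPM in mid and in late pachytene of both libraries.

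**Figure D4:**
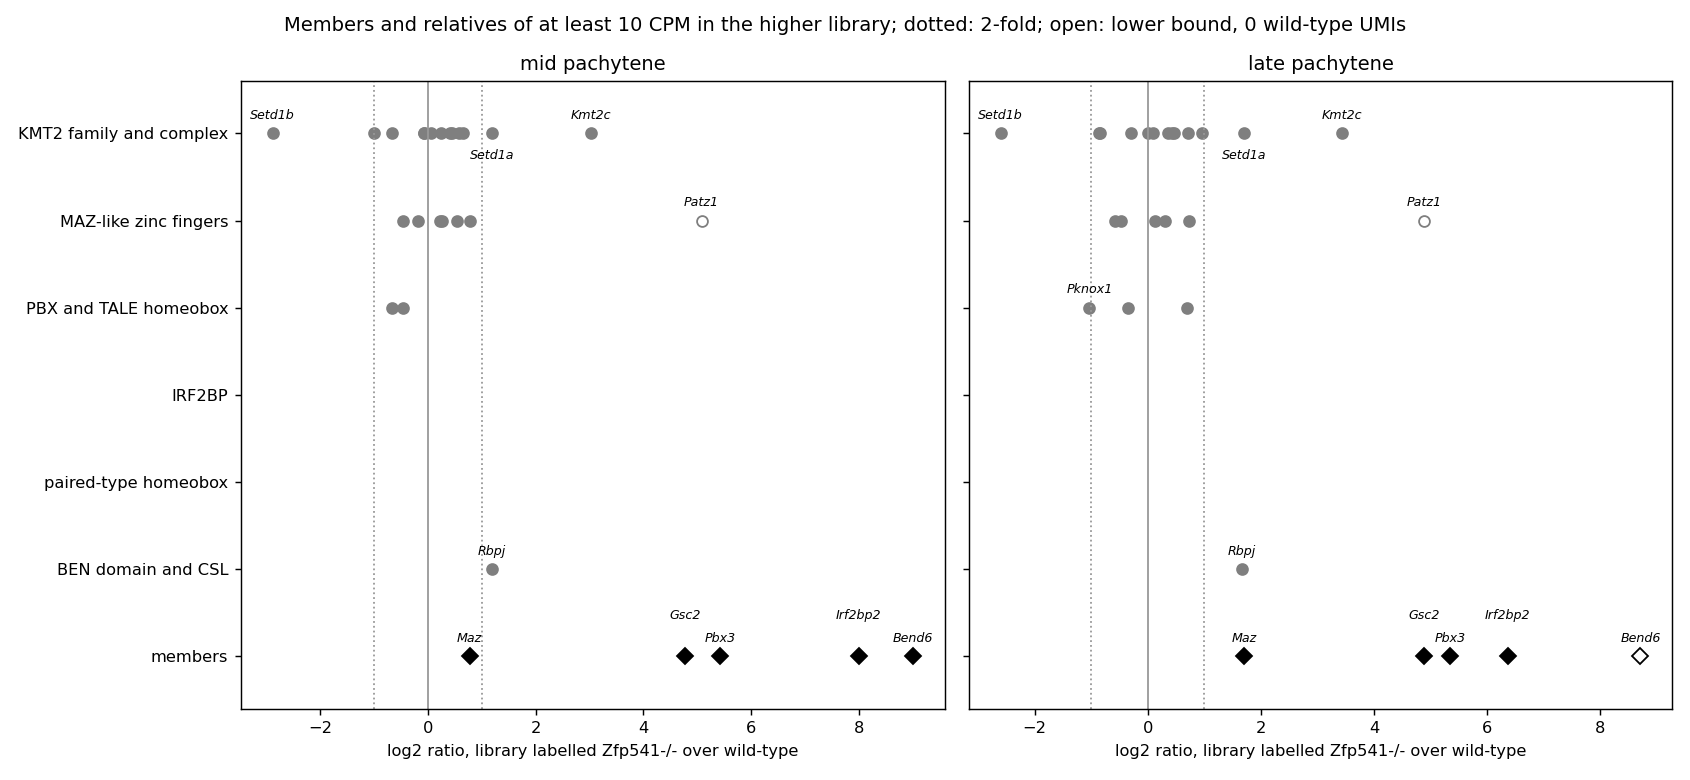
Log2 ratio of the library labelled Zfp541-/- over the wild-type library for members (diamonds) and for relatives and partners by list (circles), each reaching 10 CPM in 1 of the libraries, in mid and late pachytene; dotted lines mark 2-fold and open symbols a lower bound from 0 wild-type UMIs. Members lie from 0.77 (Maz) to 9.01 (Bend6) in mid pachytene, and the median relative is at 0.25. The members were picked on this contrast, so nothing is read from their place above the relatives.

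Genes with a like pattern were found by Pearson correlation of log2(CPM + 1) over 18 combinations of stage and library with at least 50 cells, among 13247 genes, as a description. These points share 2 libraries and their depths. Nearest to Bend6 were Fam26f (0.98), Map6d1 (0.97) and 1810010H24Rik (0.97), and Fam26f had 0 CPM in wild-type and 39.2 CPM in the other library in mid pachytene. Nearest to Gsc2 were 2210011C24Rik (0.94), Zfp524 (0.90) and AC161165.2 (0.89). Of these, 2210011C24Rik had 33.1 and 673 CPM in late pachytene and, like Gsc2, a wild-type level that was higher later, 96.3 CPM in the first meiotic division.

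Nearest to Irf2bp2 were Kcns1, Abcc4 and Reep3, all between 0.95 and 0.96. For Pbx3 they were Phc1 (0.97), Eml5 (0.97) and Ubxn2a (0.96), for Maz Zfp280b, Irf2bp1 and Tmem126b (all 0.98), and for Kmt2a Ctsd (0.99), Jkamp (0.98) and Stau2 (0.98). Irf2bp1 is a relative of Irf2bp2. A rank correlation of CPM kept 2 of the 3 genes for Gsc2 and 0 of 3 for each of the other 5 members, so these names depend on the measure. Among the members themselves the highest correlation was 0.79, between Bend6 and Irf2bp2, and the lowest -0.35, between Gsc2 and Kmt2a.

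The nearest measured neighbours of Bend6, Gsc2 and Maz were also read. Dst, which lies 409 bases from Bend6 on the opposite strand and encodes the cytoskeletal linker dystonin, had 26.6 and 63.5 CPM in mid pachytene and 44.7 and 84.0 CPM in late pachytene in the wild-type and the other library. Ess2, 1759 bases from Gsc2 on the same strand, had 25.3 and 22.4 CPM in mid pachytene and 24.9 and 26.4 CPM in late pachytene. Kif22, 692 bases from Maz, had 17.6 and 17.2 CPM and then 5.77 and 11.0 CPM. The ratios at Bend6 and Gsc2 were thus not shared in size by their nearest measured neighbours. At Irf2bp2, by contrast, the overlapping antisense gene Gm26759 was also higher in the library labelled Zfp541-/-. It had 0 and 3.53 CPM in mid pachytene and 0 and 4.25 CPM in late pachytene. Other measured genes within 20000 bases went both ways in mid pachytene. Near Gsc2, Slc25a1 was lower in the library labelled Zfp541-/-, with 32.6 and 9.28 CPM, and Dgcr2 was higher, with 13.6 and 29.9 CPM. Tssk2 and Tssk1, also near Gsc2, were lower there, with 5.86 and 0 CPM and with 5.45 and 0.410 CPM. Near Kmt2a, Ttc36 had 2.67 and 7.52 CPM and Tmem25 had 0.412 and 2.54 CPM. These neighbours were named after their values were seen.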

How the data were processed

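The submitters' processing notes name Cell Ranger 3.1.0, Seurat 3.2.0 and mm10. The deposited matrices hold raw counts of UMIs per gene and barcode (10x 3' kit). Per the file headers, a table of 17253 cells by the authors holds stage, cluster, the percent of mitochondrial UMIs (none above 10%) and a pseudotime score. Deposited names were used as given, and no doublets were called. A merged matrix differed from the library matrices in 0 entries.

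UMIs were summed per stage or cluster and library and scaled to CPM. Log2 ratios had 0.5 counts added to each sum. Intervals (95%) are exact Poisson for levels, Clopper-Pearson for shares and conditional binomial for ratios, with no test. Where a share or level was 0, the limit or bound printed takes 3 counts. Stages compared held at least 50 cells. Ratio code was tested on simulated data. Named genes are the 6 members, Zfp541, relatives of at least 10 CPM and 2-fold different in mid or late pachytene, and the 3 genes most correlated with each member. Pbx4, Ctcf, Gm26759 and the neighbours were added after their values were seen. Coordinates are from GENCODE on GRCm38, and promoters from RefSeq. Members and lists were chosen with earlier results of these data known. Alternatives were other scaling, added counts, thinning, mitochondrial, cluster and level filters. Python 3.11.15, numpy 2.4.6, scipy 1.17.1, pandas 2.3.3 and matplotlib 3.10.9 were used.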

Additional observations from a re-analysis of the deposited data

Results flagged for a closer look

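Barcodes that the authors' cell table does not annotate, 4219 in the wild-type library (median 4400 UMIs) and 2747 in the library labelled Zfp541-/- (median 1072 UMIs), enter no comparison above, and each member had a higher level in those of the second library. Bend6 had 74.0 CPM there against 0.0874 CPM in the unannotated wild-type barcodes. Gsc2 had 178 against 29.7 CPM. Irf2bp2 had 57.2 against 2.49 CPM. Pbx3 had 78.5 against 1.75 CPM, Maz 83.3 against 10.5 CPM and Kmt2a 76.7 against 2.49 CPM. Of the 2747 barcodes, 2013 had over 10% mitochondrial UMIs, against 91 of the wild-type 4219, and the stages of these cells are not known.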

How the results depend on the processing

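In mid and late pachytene every alternative run left each member's log2 ratio above 0, the lowest being 0.65. For mid and late pachytene and clusters 12 and 16, 163 alternative values stayed inside the counting interval and 11 did not. Thinning to 3000 UMIs gave Maz 0.65 in mid and 1.38 in late pachytene, and in late pachytene Gsc2 5.20 and Irf2bp2 5.22. Cells of 5000 to 15000 UMIs, an alternative chosen after seeing the data, gave Gsc2 4.39 and Maz 1.12 in mid pachytene, Gsc2 1.38 in cluster 12 and Maz 0.46 in cluster 16. The last 2 changed sign (-0.78 and -0.18 with all cells) and lie above their intervals, which include 0. Irf2bp2 in cluster 16 also changed sign, from 1.33 to -0.30, inside its interval, and Gsc2 in cluster 12 was 0.09 without cells above 5% mitochondrial UMIs. Mid pachytene without cluster 2 gave Gsc2 4.27, without cluster 4 it gave Maz 1.05, and equal cluster weights gave Maz 1.42 in late pachytene. The highest pachytene over the highest earlier level was 8.57 for Bend6 without cells above 5% mitochondrial UMIs, which ends its class as new. It was 13.7 for Irf2bp2 with zygotene and mid pachytene alone, and in UMIs per cell 2.44 for Irf2bp2 and 2.21 for Maz, which ends their class as persisting. The cause was not tested. With no level filter 5 members were at least 2-fold higher in cluster 16. Relatives at least 2-fold higher numbered 0 at 50 CPM and 15 with no filter in mid pachytene, and 0 and 12 in late pachytene. Those lower numbered 0 and 12 in mid pachytene, and 1 and 14 in late pachytene, where median-of-ratios scaling also gave 1. A rank correlation kept 0 of the nearest genes of Bend6, Irf2bp2, Pbx3, Maz and Kmt2a. No paired analysis was possible because each genotype had 1 library. Wild-type levels near 0 and the few wild-type cells before pachytene limit the ratios.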
